A study of Mus musculus with 120 samples.

Results

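The Enterobacterales described here are the 61 sequence variants, of 13844 in the feature table, that the taxonomy table places in Klebsiella (17 variants), Pantoea (9), Enterobacter (30), Escherichia (1) or Escherichia-Shigella (4). They were chosen by genus name alone, and their share of a library's 16S rRNA gene counts was followed across site, diet and light cycle. The material is colonic or cecal content of 10-week-old C57BL/6N mice, each kept in a single cage, which after 7 days of acclimatisation were held for 42 days on 1 of 5 daily light:dark cycles. Chow mice received sterilised feed and water, and antibiotics mice received the same feed with a broad-spectrum antibiotic cocktail in their water, whose components and doses the labels do not give. The light cycles are LD0/24 (constant dark), LD8/16, LD12/12, LD16/8 and LD24/0 (constant light), named by hours of light and hours of dark. There were 120 libraries in 20 groups of 6, except 5 libraries for colon with antibiotics in LD8/16 and 7 for cecum on chow in LD8/16. Nothing in the labels says whether a colon and a cecum library with the same number came from 1 mouse.

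Enterobacterales are Gram-negative facultative anaerobes that respire oxygen or nitrate where they can and ferment where they cannot. In the intestine of a healthy mouse, which obligate anaerobes dominate, they are a minor group, and they are well known to gain ground after antibiotics. Klebsiella is an encapsulated gut and environmental genus, Pantoea is best known from plants and grain, Enterobacter lives in gut, soil and water, and Escherichia with its close relative Shigella holds the commensal and pathogenic E. coli lineages. The 16S gene separates some of these genera poorly, and the taxonomy table keeps Escherichia and Escherichia-Shigella as separate names.

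Library totals ran from 39157 to 73076 counts, so that a share listed at 0 allows up to 0.00411% to 0.00766% (3 counts of the library total, counting error only). The smallest count above 0 is 2, so a listed 0 may hide a single count. If single counts were removed, these floors are too low. Shares are relative, and total bacterial load was not measured: a larger share cannot be told apart from a loss of other bacteria. The libraries also fall into 11 sets of 7 or 8 that share low-level variants of 26 mouth and fermentation genera, none of them among the 5 genera here. These sets hold 86 libraries, and 34 lie outside them: all 31 of cecum on chow, 1 of colon on chow and 2 of cecum with antibiotics. The sets were rebuilt from the counts and the labels name no such batches, so a set stands for libraries that share this background, whatever made them share it.

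Most of the 61 variants were rare, and a few carried nearly all the counts. In all, 21 variants appeared in a single library, 26 in at least 10, and 4 reached 1% of counts in any library. One variant assigned to Klebsiella aerogenes (Klebsiella variant 1, numbered by mean share within its genus) held 98.8% of Klebsiella counts. One assigned to Pantoea agglomerans (Pantoea variant 1) held 95.4% of Pantoea counts. Escherichia was a single variant, named Escherichia sp. CPD32, and the leading of 4 Escherichia-Shigella variants held 92.8% of its genus. Enterobacter differed from the others in that its leading variant held 20.8% of counts, and its 30 variants carried 16 species names.

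On chow, the 5 genera together had a median of 0.980% of counts in the colon (0.0153% to 1.70%) and 0.0409% in the cecum (0% to 10.4%), and with antibiotics Klebsiella and Pantoea held far larger shares at both sites. Klebsiella in the colon ran from 0% through a median of 0.582% to 0.882% on chow (n = 30) and from 10.5% through 25.6% to 70.5% with antibiotics (n = 29). In the cecum it ran from 0% through 0.0145% to 0.0571% on chow (n = 31), where 11 libraries held none, and from 5.83% through 13.0% to 29.6% with antibiotics (n = 30). The lowest library with antibiotics lay above the highest chow library at both sites. Means were 0.567% ± 0.163 (SD) and 31.3% ± 16.9 (SD) in the colon, and 0.0180% ± 0.0178 (SD) and 14.5% ± 5.15 (SD) in the cecum. The ratio of means was 55.2 in the colon and 804 in the cecum.

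Pantoea followed the same order at a lower level. With antibiotics it ran from 2.31% through 5.47% to 15.4% in the colon and from 1.23% through 2.78% to 6.18% in the cecum. On chow it ran from 0% through 0.165% to 0.341% in the colon, and in the cecum 24 of 31 libraries held none and the highest held 0.0210%. As for Klebsiella, no library with antibiotics overlapped the chow libraries of its site. Enterobacter reached at most 1.21% in any library. In the colon it ran from 0% through 0.101% to 0.266% on chow and from 0.232% through 0.791% to 1.21% with antibiotics. In the cecum 28 of 31 chow libraries held no Enterobacter and the highest held 0.0395%, against 0.231% through 0.537% to 0.821% with antibiotics. Libraries with antibiotics lay above the highest chow library in 28 of 29 cases in the colon and 30 of 30 in the cecum.

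**Figure D1:**
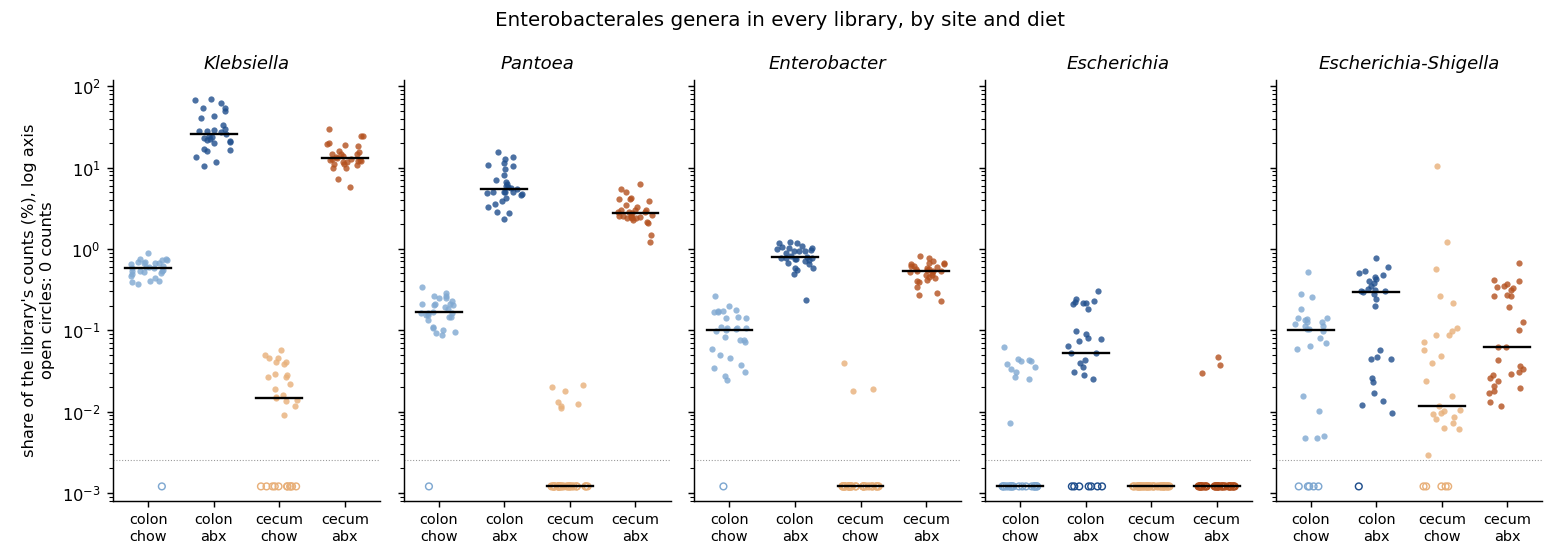
Share of counts (%, log axis) of each of the 5 genera in every library, by site and diet ("abx" marks antibiotics). Points are libraries, bars are medians, and open circles below the dotted line are libraries with 0 counts. Klebsiella and Pantoea with antibiotics lie wholly above chow at both sites, Escherichia was found in 3 of 61 cecal libraries, and Escherichia-Shigella overlaps between diets, with 1 chow cecum library at 10.4%.

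Escherichia and Escherichia-Shigella did not share this pattern. Escherichia was found in 12 of 30 colon libraries on chow, at most at 0.0617%, and in 22 of 29 with antibiotics, with a median of 0.0532% and a highest value of 0.303%. In the cecum it was found in 0 of 31 chow libraries and in 3 of 30 with antibiotics, at most at 0.0465%. Escherichia-Shigella ran from 0% through 0.0998% to 0.525% in colon on chow and from 0% through 0.294% to 0.773% with antibiotics, with 3 of 29 libraries above the highest chow library. In the cecum its median was 0.0118% on chow and 0.0622% with antibiotics, yet its chow mean was the higher, at 0.432% ± 1.87 (SD) against 0.162% ± 0.172 (SD). A single chow library of LD8/16 set that mean, with 10.4% against 0% to 0.560% in the other 6 of its group. Its counts came from Escherichia-Shigella variant 1, at 8.89%, and variant 2, at 1.52%.

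Together the 5 genera took 39.0% ± 20.4 (SD, n = 29) of counts in colon with antibiotics, from 13.8% through 32.6% to 86.5%, and 18.2% ± 6.27 (SD, n = 30) in the cecum, from 7.79% through 16.4% to 36.4%. They held over 50% of counts in 7 of 29 colon libraries with antibiotics, of which 4 came from LD0/24, 1 from LD8/16 and 2 from LD12/12, and in 0 of 30 cecal libraries. Within this total Klebsiella made up 79.4% ± 2.18 (SD) in the colon and 79.2% ± 1.55 (SD) in the cecum. Pantoea made up 16.9% ± 0.632 (SD) and 16.7% ± 0.654 (SD).

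Diets were compared at each site over all light cycles, to ask how each genus moved with antibiotics. All 5 genera passed as higher with antibiotics in the colon in edgeR's quasi-likelihood test with Benjamini-Hochberg adjustment, where 16.7% of the 258 genera tested were called higher, 64.3% lower and 81% in either direction. The log2 fold change was 5.72 ± 0.27 for Klebsiella (SE, edgeR adjusted p = 3.01e-29), 5.18 ± 0.28 for Pantoea (adjusted p = 2.59e-26) and 3.04 ± 0.30 for Enterobacter (adjusted p = 2.70e-14). The median over all genera tested was -3.62, since the share of most genera fell. For Escherichia the value was 5.03 ± 1.33 (edgeR adjusted p = 0.000489), with 14 of 29 libraries above the highest chow library. With library set as a block it changed sign, to -2.80, and did not pass (adjusted p = 0.346), and with group means averaged over the light cycles it was 3.30 and did not pass either. Only 1 set held both diets in the colon. There Escherichia was at 0% in the 5 libraries with antibiotics (LD8/16) and at 0% and 0.00717% on chow (LD24/0). The value of -2.80 thus rests in part on shares near the floor and on different light cycles. For Escherichia-Shigella the value was 1.35 ± 0.60 (edgeR adjusted p = 0.0342). That call was lost without LD0/24 replicate 1 or 2 with antibiotics (adjusted p = 0.0514 and 0.0675) or without LD24/0 replicate 5 on chow (adjusted p = 0.0505), and with library set as a block (adjusted p = 0.157).

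All 5 members were higher with antibiotics in the colon under each of the other scalings, with values that differed between scalings. The median of all genera shifted by 1.31 with TMMwsp factors, by 2.01 with DESeq2 and by 3.93 with limma on centred log-ratios. Relative to its own median, Klebsiella lay at 9.34 on the log2 scale in the main setting, at 10.20 with TMMwsp factors, at 8.88 with DESeq2 and at 7.22 with limma. The split of all calls moved from 43 higher and 166 lower to 80 and 145 with TMMwsp factors and to 106 and 92 with limma. One set of libraries held both diets in the colon. In it the 2 chow libraries of LD24/0 held 0.674% and 0.720% Klebsiella, and the 5 libraries with antibiotics of LD8/16 held 22.0% to 53.2%. With the set as a block the log2 fold change of Klebsiella was 4.96 (edgeR adjusted p = 0.000218).

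In the cecum 3 of the 4 genera tested passed as higher with antibiotics, where 33.3% of 255 genera were called higher, 58% lower and 91.4% in either direction. Log2 fold changes were 9.88 ± 0.61 for Klebsiella (SE, edgeR adjusted p = 1.32e-23), 10.29 ± 0.71 for Pantoea (adjusted p = 3.87e-21) and 8.90 ± 0.74 for Enterobacter (adjusted p = 1.72e-17), against a median of -2.87 over all genera. For Enterobacter only 3 chow libraries were above 0, so the size of its fold rests on them. Escherichia-Shigella did not pass, at 0.25 ± 0.80 (edgeR adjusted p = 0.766), although it passed at 2.38 with limma on centred log-ratios, at 2.18 with the library size taken without Parabacteroides, Bacteroides and Enterococcus, and at 1.70 with the replicate block. Escherichia had too few counts to be tested.

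The low-level background moved with diet in the cecum. It took 2.12% to 4.43% of counts in the 28 libraries with antibiotics that lie in sets, and 0.00987% to 0.885% in the 31 chow libraries, all outside the sets, so that set and diet cannot be told apart there as a block. The 2 cecal libraries with antibiotics outside the sets (LD24/0 replicates 5 and 6) had a background of 0.0390% and 0.0702%, and still held 13.7% and 12.8% Klebsiella, 2.81% and 2.50% Pantoea and 0.668% and 0.388% Enterobacter. Their shares lay inside the range of the other 28 libraries. On chow the reverse was seen in the colon. The 29 colon chow libraries in sets had a background of 2.07% to 5.35% and 0.374% to 0.882% Klebsiella, while the 1 outside (LD24/0 replicate 5) had a background of 0.235% and 0 counts of Klebsiella, Pantoea, Enterobacter and Escherichia, at the lowest depth of all libraries. What part of the chow shares in the colon moves with the background was not tested.

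At the level of single variants, most members were seen with antibiotics and not on chow, where most variants of the table were seen on chow and not with antibiotics. Of the 61 variants, 38 (62.3%) were seen only with antibiotics, 5 only on chow and 18 on both. Over all 13844 variants, 7.32% were seen only with antibiotics, 84.3% only on chow and 8.42% on both. A colon library held a median of 6 of them on chow (1 to 8) and 19 with antibiotics (7 to 27), and a cecal library held 2 (0 to 4) and 14 (9 to 19). Of the 26 variants found in at least 10 libraries, 13 (50%) were in no colon chow library and 22 (84.6%) in no cecal chow library, against 4.55% and 18.8% of all 1164 variants found in at least 10 libraries. More of the rare variants can be seen where the genus itself is abundant, and library totals were similar between diets.

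Klebsiella variant 1 carried the change of its genus, with a log2 fold change of 5.71 in the colon. Klebsiella variant 2, also named K. aerogenes, was in 0 of 30 chow colon libraries and 24 of 29 with antibiotics. In the cecum it was in 0 of 31 and 30 of 30. This variant held 0.911% of all Klebsiella counts, so at the chow shares of the genus it could lie near or under the floor. Its absence on chow can therefore not be told apart from limited depth. Among the Enterobacter variants, variant 2 (Enterobacter hormaechei) was in 0 of 30 and 29 of 29 colon libraries and in 0 of 31 and 30 of 30 cecal libraries. Variant 1 (uncultured Enterobacter sp.) was in 0 and 26 colon libraries and in 0 and 30 cecal libraries. In the colon it held 16.5% of Enterobacter counts with antibiotics and 0% on chow, where the genus averaged 0.103% of counts. The highest floor of a library was 0.00766%. The part of depth in the absence of these Enterobacter variants on chow was not tested. By contrast Enterobacter variant 4 (Enterobacter kobei) was already in 24 of 30 colon chow libraries and in 29 of 29 with antibiotics, a log2 fold change of 1.26 ± 0.60 (edgeR adjusted p = 0.0464). Pantoea variant 2 did not pass in the colon (1.68 ± 0.90, edgeR adjusted p = 0.0741), being in 12 of 30 and 21 of 29 libraries, and neither did Enterobacter variant 3, in 10 of 30 and 12 of 29.

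Over all variants tested, 25 of the 29 members that passed the filter in the colon were called higher and 0 lower, where 10.1% of 1222 variants were called higher and 87.1% in either direction. In the cecum 18 of 20 were higher and 1 lower, where 23.6% of 1246 were higher, 71.4% lower and 95% were called in either direction. The lower one was Escherichia-Shigella variant 2, found in 6 of 31 chow and 0 of 30 antibiotics libraries of the cecum. A variant that chow lacks passes the filter only through the libraries with antibiotics, so these counts describe the variants that passed and not all 61.

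**Figure D2:**
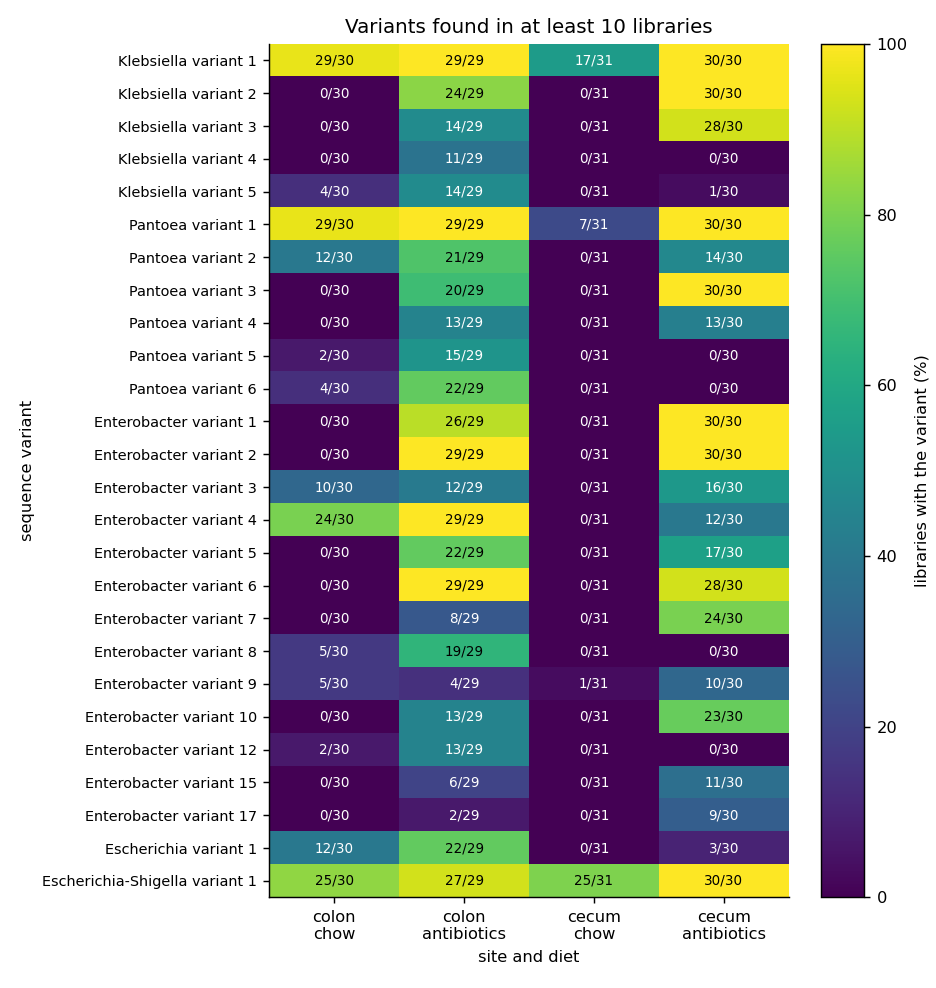
Number of libraries in which each of the 26 variants found in at least 10 libraries was detected, out of all libraries of that site and diet; the shade is the detected share. Of the 26 variants, 22 were in no cecal chow library and 13 in no colon chow library.

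The comparison of sites asked whether the members differ between cecum and colon within a diet. With antibiotics 4 of the 5 genera were lower in the cecum, where 20% of 215 genera were called lower and 46% in either direction. The log2 difference of cecum from colon was -1.04 ± 0.21 for Klebsiella (SE, edgeR adjusted p = 2.53e-05), -1.05 ± 0.21 for Pantoea (adjusted p = 1.87e-05) and -0.64 ± 0.19 for Enterobacter (adjusted p = 0.00272), and the median of all genera was -0.14. The call for Enterobacter was lost with no filter on low counts (adjusted p = 0.0630). Escherichia differed most, at -5.97 ± 0.68 (adjusted p = 1.70e-11), and did not pass with group means averaged over the light cycles. Escherichia-Shigella did not pass (-0.48 ± 0.44, edgeR adjusted p = 0.468). Ranges overlapped for all 5 genera.

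Parabacteroides, an obligate anaerobe, took 31.4% ± 23.3 (SD, n = 29) of counts in the colon and 64.4% ± 19.9 (SD, n = 30) in the cecum. With the library size taken without Parabacteroides, Bacteroides and Enterococcus, the site difference of Klebsiella was -0.29 (edgeR adjusted p = 0.000536) and that of Pantoea -0.31, while Enterobacter was at 0.018 and Escherichia-Shigella at 0.32, both no longer lower in the cecum. The split of all calls was 56 higher and 43 lower in the main setting, 53 and 61 with TMMwsp factors and 48 and 67 with limma. Within 1 diet no set spans both sites, and set and site therefore cannot be told apart.

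Single variants went both ways between the sites with antibiotics: of 31 members tested, 3 were higher in the cecum and 16 lower, where 31.3% of 598 variants were called higher, 15.7% lower and 47% in either direction. Klebsiella variant 1 was lower in the cecum by a log2 difference of -1.05 ± 0.20 (SE, edgeR adjusted p = 6.21e-06), while Klebsiella variant 3, also K. aerogenes, was higher by 2.21 ± 0.77 (adjusted p = 0.0117) and found in 28 of 30 cecal against 14 of 29 colon libraries. Klebsiella variants 4 and 5, both named K. pneumoniae, were in 11 and 14 of 29 colon libraries and in 0 and 1 of 30 cecal libraries. Pantoea variants 5 and 6 were in 15 and 22 colon libraries and in 0 cecal libraries. In a further example, chosen after the values were seen, Enterobacter variant 7 was in 8 of 29 colon and 24 of 30 cecal libraries and Enterobacter variant 8 (Enterobacter cancerogenus) in 19 and 0. Of the 26 variants found in at least 10 libraries, 5 (19.2%) were in colon but in 0 of 30 cecal libraries with antibiotics, and 11 (42.3%) were in a larger share of cecal libraries, against 8.51% and 31.6% of all 1164 such variants.

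On chow the cecum held less than the colon of 4 of the 5 genera, where 29.8% of 272 genera were called lower and 43.4% in either direction. The log2 difference was -5.21 ± 0.58 for Klebsiella (SE, edgeR adjusted p = 3.99e-12), -6.20 ± 0.72 for Pantoea (adjusted p = 1.46e-11) and -6.62 ± 0.85 for Enterobacter (adjusted p = 2.74e-10), and Escherichia was in 12 of 30 colon and 0 of 31 cecal libraries. Escherichia-Shigella did not pass, at 0.69 ± 0.84 (edgeR adjusted p = 0.567), and without the LD8/16 cecal library at 10.4% its difference was -0.11. As given above, the background took 2.07% to 5.35% of counts in the 29 colon libraries in sets and at most 0.885% in the cecum, so set and site cannot be told apart. The split of all calls was 37 higher and 81 lower, and 77 and 74 with TMMwsp factors, 44 and 55 with DESeq2 and 80 and 54 with limma.

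The change with antibiotics was larger in the cecum than in the colon for Klebsiella, Pantoea and Enterobacter, tested as an interaction of diet and site, where 31.1% of 322 genera were called higher and 42.5% in either direction. The log2 interaction was 4.12 ± 0.50 for Klebsiella (SE, edgeR adjusted p = 1.25e-12), 4.91 ± 0.58 for Pantoea (adjusted p = 2.69e-13) and 5.01 ± 0.66 for Enterobacter (adjusted p = 4.00e-11). With TMMwsp factors the value for Klebsiella was 2.06, and the split of all calls moved from 100 higher and 37 lower to 82 and 93 with TMMwsp factors and to 62 and 129 with limma. The larger rise in the cecum came with a lower starting share and a lower final share: the median of Klebsiella was 0.0145% on chow and 13.0% with antibiotics there, against 0.582% and 25.6% in the colon. Escherichia and Escherichia-Shigella did not pass (edgeR adjusted p = 0.152 and 0.162). On chow, 29 colon libraries lie in sets and 1 outside, while all 31 cecal libraries lie outside them. Set and site therefore cannot be told apart in the chow shares on which this interaction rests.

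With antibiotics, Pantoea stayed in a nearly fixed ratio to Klebsiella across libraries. Over the 59 libraries of both sites the ratio of Pantoea to Klebsiella counts was 0.212 ± 0.00991 (SD), from 0.193 to 0.245, while Klebsiella itself spanned 12.1-fold. The ratio thus varied 1.27-fold from the lowest library to the highest. For the leading variants of both genera the ratio was 0.204 ± 0.00628 (SD, n = 29) in the colon and 0.205 ± 0.00806 (SD, n = 30) in the cecum. Its coefficient of variation was 3.07% in the colon, against 1.93% that counting error alone gives, and 3.93% against 2.61% in the cecum. In the 29 colon chow libraries that hold both, the leading variants stood at 0.231 ± 0.0296 (SD), with a coefficient of variation of 12.8% against 12.4% from counting. The ratio of the whole genera was looser there, at 0.311 ± 0.0950 (SD), from 0.180 to 0.550, with a coefficient of variation of 30.5% against 11.2% from counting. Whether the leading variants of Klebsiella and Pantoea come from separate organisms was not tested. The calls and p-values of Klebsiella and Pantoea are therefore not to be counted as independent results.

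Enterobacter did not keep such a ratio. In colon with antibiotics it ran from 0.00815 to 0.0694 of Klebsiella, an 8.51-fold range with a coefficient of variation of 49.4%, where Klebsiella spanned 6.73-fold. Its share was 0.827% ± 0.225 (SD, n = 29) in the colon and 0.527% ± 0.142 (SD, n = 30) in the cecum. Escherichia-Shigella varied more against Klebsiella, with a coefficient of variation of 110% in the colon and 123% in the cecum. These ratios are within libraries and so do not depend on how the library total is scaled.

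**Figure D3:**
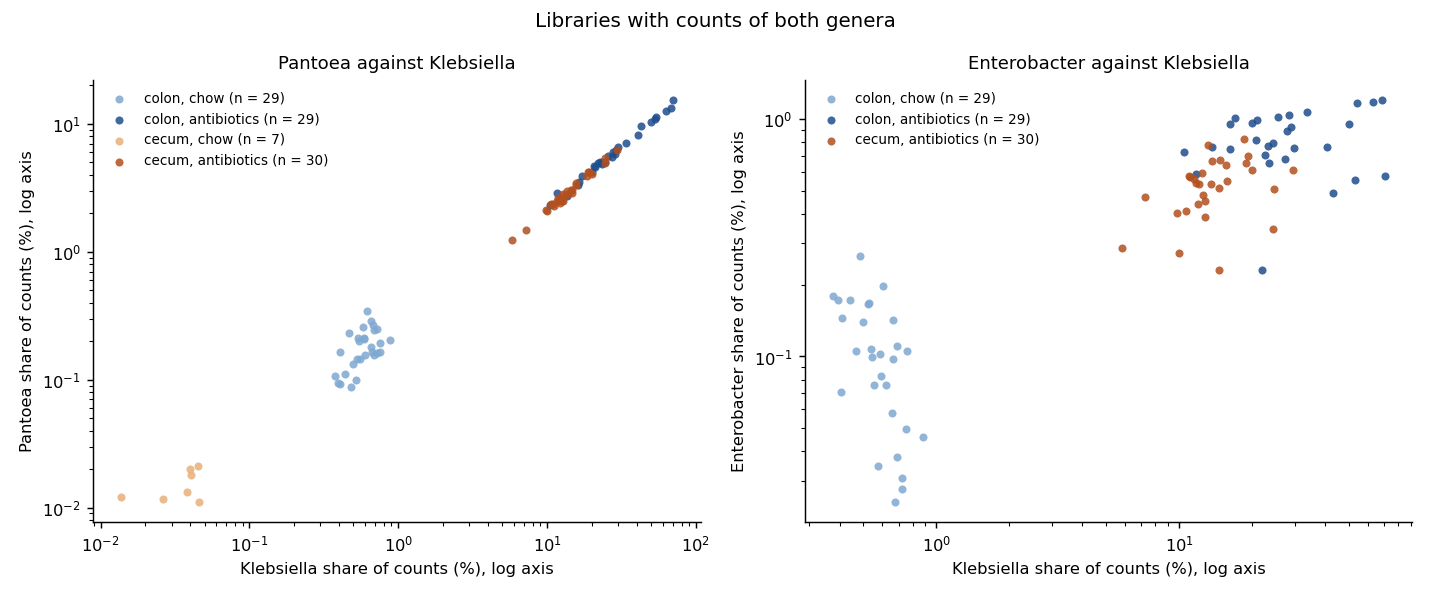
Share of Pantoea (left) and Enterobacter (right) against the share of Klebsiella, in % of counts on log axes, for every library with counts of both genera, by site and diet. The Pantoea points lie along 1 line over the whole range of Klebsiella with antibiotics, with ratios of 0.193 to 0.245, while the Enterobacter points of the colon with antibiotics spread from 0.00815 to 0.0694 of Klebsiella.

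The comparison of light cycles asked whether the members differ between light regimes within a site and diet. In colon with antibiotics Klebsiella was highest in constant dark. The 6 libraries of LD0/24 held 62.8%, 68.3%, 20.0%, 70.5%, 54.3% and 16.2% (replicates 1 to 6), and the 5 of LD8/16 held 53.2%, 22.0%, 40.9%, 27.3% and 23.6%. LD12/12 ran from 23.2% through 29.3% to 50.1%, LD16/8 from 10.5% through 20.3% to 27.9% and LD24/0 from 11.7% through 20.8% to 33.7%. The LD0/24 group fell into 4 libraries over 50% and 2 near the level of the longer light cycles, and those 2, replicates 3 and 6, held 65.3% and 62.7% Bacteroides against 0.281% to 0.410% in the other 4. Means by light cycle were 48.7% ± 24.4, 33.4% ± 13.4, 33.9% ± 10.3, 19.7% ± 7.18 and 21.1% ± 7.29 (SD) from LD0/24 to LD24/0, and neighbouring light cycles overlapped throughout. Pantoea was also highest in LD0/24, with medians of 11.9%, 5.47%, 6.39%, 4.29% and 4.63%. Enterobacter medians were 1.06%, 0.653%, 0.848%, 0.777% and 0.902%, and those of Escherichia-Shigella 0.0517%, 0.0136%, 0.313%, 0.142% and 0.466%. The most abundant other genera also had different means by light cycle: Parabacteroides averaged 6.66%, 22.8%, 43.4%, 54.8% and 27.9%, and Enterococcus 0.246%, 3.85%, 4.84%, 8.00% and 22.5%. The part of these genera in the Klebsiella differences was not tested.

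Across the 5 light cycles of colon with antibiotics, 3 of the 5 genera passed, where 31.9% of 144 genera were called. The edgeR adjusted p was 0.0180 for Klebsiella, 0.0216 for Pantoea and 1.01e-06 for Escherichia, and 0.148 for Enterobacter and 0.0833 for Escherichia-Shigella, which did not pass. Escherichia-Shigella passed without LD0/24 replicate 2 (adjusted p = 0.0469) or without LD8/16 replicate 4 (adjusted p = 0.00460). A permutation test over the 29 libraries on the log2 share, added after the data were seen, gave p = 0.0177 for Klebsiella and 0.0243 for Pantoea, unadjusted. Klebsiella also passed with library set as a block (adjusted p = 0.0294). It did not pass with TMMwsp factors (adjusted p = 0.0580), with DESeq2 (0.0778), with limma on centred log-ratios (0.0693), with the replicate block (0.0761) or with the library size taken without Parabacteroides, Bacteroides and Enterococcus (0.326). Without LD0/24 replicate 4, at 70.5% Klebsiella, Pantoea did not pass (edgeR adjusted p = 0.0566).

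Against LD12/12 no single light cycle passed for Klebsiella, with log2 differences of 0.52 ± 0.34 in LD0/24 (SE, edgeR adjusted p = 0.362), -0.02 ± 0.36 in LD8/16, -0.78 ± 0.34 in LD16/8 (adjusted p = 0.197) and -0.68 ± 0.34 in LD24/0 (adjusted p = 0.211). The same held for Pantoea, Enterobacter and Escherichia-Shigella. In these contrasts 13.2%, 8.33%, 0.694% and 17.4% of 144 genera were called in either direction. In cecum with antibiotics, where no member passed against LD12/12, the shares were 1.27%, 8.86%, 0% and 7.59% of 158 genera. On chow they were 1.8%, 0%, 3.6% and 18% of 222 genera in the colon, and 0%, 0%, 0% and 3.78% of 185 in the cecum.

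Light cycles could also be compared between libraries of 1 set. In the set that holds LD0/24 replicates 1 and 2 with all of LD24/0, Klebsiella was 62.8% and 68.3% against 11.7% to 33.7%, a ratio of geometric means of 3.26 with no overlap (two-sided exact permutation p = 0.0714, the smallest that 2 against 6 libraries allow). In the set of LD0/24 replicates 3 to 6 with LD16/8 replicates 1 to 4 the ratio was 2.09 and the ranges overlapped (exact permutation p = 0.171, smallest possible 0.0286). In the set of LD12/12 with LD16/8 replicates 5 and 6 it was 1.31, also with overlap (exact permutation p = 0.214, smallest possible 0.0714). Pantoea gave ratios of 2.86, 2.06 and 1.32 with the same p-values. These 6 comparisons were not adjusted, and none has a p under 0.05.

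**Figure D4:**
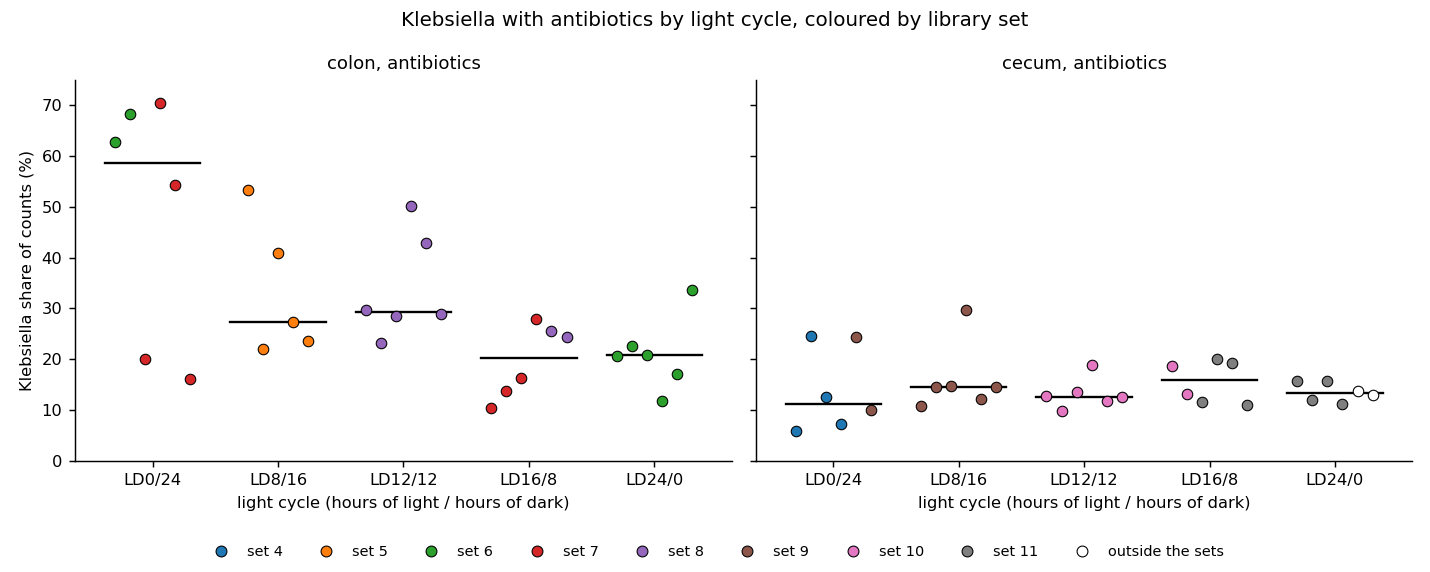
Klebsiella share (% of counts) in each library with antibiotics by light cycle, for the colon and the cecum, coloured by library set, with bars at the medians. In the colon 4 of 6 LD0/24 libraries lie over 50% and the LD16/8 and LD24/0 libraries lie between 10.5% and 33.7%, while the cecal medians lie between 11.2% and 15.9%.

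In the cecum with antibiotics, Klebsiella medians were 11.2%, 14.6%, 12.6%, 15.9% and 13.3% from LD0/24 to LD24/0. None of the 4 genera tested passed for light cycle in edgeR (0 of 4, where 17.7% of 158 genera were called), and of these Escherichia-Shigella alone had an unadjusted p under 0.05, at 0.0347. DESeq2, TMMwsp factors and limma each called 1 of them. Escherichia-Shigella passed without LD12/12 replicate 5 (edgeR adjusted p = 0.00553) or without LD8/16 replicate 3 (adjusted p = 0.0322), which hold 0.262% each, against at most 0.0290% in the rest of LD12/12 and 0.0436% in the rest of LD8/16. Whether light acted differently at the 2 sites was tested as an interaction, in which Klebsiella, Pantoea and Enterobacter did not pass (edgeR adjusted p = 0.387, 0.465 and 0.612). Escherichia passed there (adjusted p = 0.00193), where 11.6% of 215 genera were called, and Escherichia-Shigella did not (adjusted p = 0.273) unless cecal LD12/12 replicate 5 or colon LD8/16 replicate 4 was left out (0.0296 and 0.0336). With library set as a block the call for Escherichia was lost (adjusted p = 1.00). A light effect of Klebsiella particular to the colon was therefore not shown.

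Escherichia had the clearest differences between light cycles in the colon, and these followed the library sets. With antibiotics it was at 0% in all 5 libraries of LD8/16 and at 0% to 0.0395% in LD12/12. It ran from 0.0518% to 0.216% in LD0/24, from 0.0350% to 0.0782% in LD16/8 and from 0.207% to 0.303% in LD24/0. Against LD12/12 it was higher in LD0/24 by a log2 difference of 2.54 ± 0.69 (edgeR adjusted p = 0.0284) and in LD24/0 by 3.52 ± 0.72 (adjusted p = 0.00148), and it passed as lower in LD8/16 (adjusted p = 6.74e-05), where no library holds it. With library set as a block the differences of LD0/24 and LD24/0 did not pass (adjusted p = 0.928 and 1.00). All 5 LD8/16 libraries lie in 1 set that holds no other light cycle with antibiotics. Set and light cycle therefore cannot be told apart for LD8/16.

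Inside a set, the ranges of Escherichia in different light cycles overlapped. In the set of LD0/24 and LD24/0 it was 0.216% and 0.183% in the first and 0.207% to 0.303% in the second. In the set of LD0/24 and LD16/8 it was 0.0518% to 0.0966% and 0.0532% to 0.0782%. In the set of LD12/12 and LD16/8 it was 0% to 0.0395% and 0.0350% to 0.0435%. The LD0/24 and LD16/8 groups each lie in 2 sets, and in both groups Escherichia was high or low with the set: the 2 LD0/24 libraries of the first set lay above all 4 of the second. On chow in the colon Escherichia was in 6 of 6 libraries of LD12/12, 5 of 6 of LD8/16, 1 of 6 of LD24/0 and 0 of 6 of LD0/24 and of LD16/8. It was the only member to pass there for light cycle (edgeR adjusted p = 0.000514, where 22.1% of 222 genera were called), and it did not pass with library set as a block. Against LD12/12 on chow it passed as lower in LD0/24, LD16/8 and LD24/0 (edgeR adjusted p = 0.00542, 0.00828 and 0.0242), and no other member passed.

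**Figure D5:**
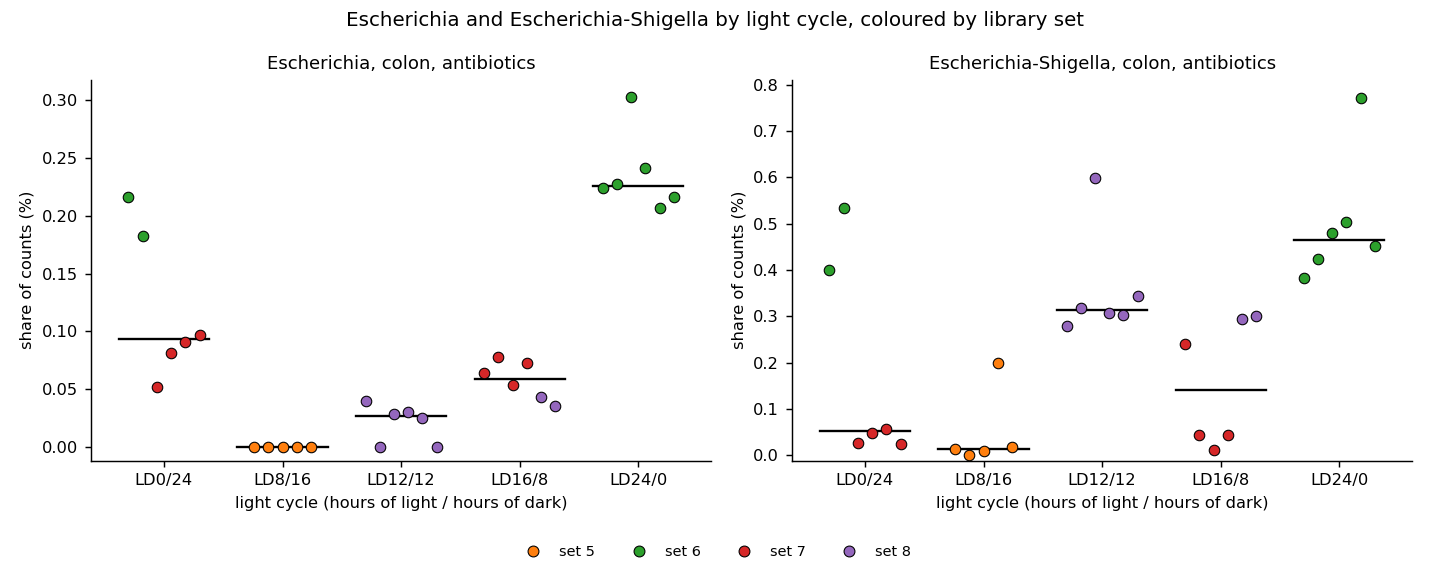
Escherichia share (% of counts) in each colon library with antibiotics by light cycle, coloured by library set, with bars at the medians. The LD0/24 libraries fall into 2 levels by set, 0.183% and 0.216% in the set shared with LD24/0 and 0.0518% to 0.0966% in the set shared with LD16/8, and all 5 LD8/16 libraries lie at 0%.

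Several minor variants also went with a set. Klebsiella variant 4 (K. pneumoniae) was in all 8 libraries of the set of LD0/24 and LD24/0 with antibiotics, at 0.0833% to 0.127% and 0.0759% to 0.107%, in 3 of 8 of the set of LD0/24 and LD16/8, and in no other library. Pantoea variant 5 was in the same 8 libraries, at 0.105% to 0.110% and 0.107% to 0.126%, and at most at 0.0754% elsewhere. Escherichia-Shigella was 0.280% to 0.600% in the set of LD12/12 and LD16/8 and 0.383% to 0.773% in that of LD0/24 and LD24/0, against 0.0122% to 0.239% in the set of LD0/24 and LD16/8. Over the 26 variants found in at least 10 libraries and the 8 sets with antibiotics, a variant was in every library of a set in 69 of 208 cases, in none in 37 and in some in 102. Presence in only some libraries of a set was thus the most frequent case. The same count over all variants was not made, so it does not single out the members. Of 28 member variants tested in colon with antibiotics, 9 passed for light cycle, where 29.4% of 306 variants were called, and 4 passed with the replicate block. Among them were Klebsiella variant 1 (edgeR adjusted p = 0.0342) and Pantoea variant 1 (adjusted p = 0.0426). In the cecum 0 of 19 passed, where 33.8% of 402 variants were called.

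In cecum on chow Escherichia-Shigella was the only member called for light cycle (edgeR adjusted p = 0.0368, where 15.7% of 185 genera were called). The 7 libraries of LD8/16 held 0%, 0%, 0.00292%, 0.00866%, 0.0155%, 0.560% and 10.4%. The call was lost without the last of these (adjusted p = 0.592), and also without LD0/24 replicate 4 (0.0501), LD12/12 replicate 1 (0.0507) or LD16/8 replicate 6 (0.0545).

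The other Enterobacterales of the table were few. Of 15 further genus names in the order, 9 were tested for diet in the colon, 3 of them higher and 3 lower with antibiotics. In the cecum 6 were tested, of which 5 were higher and 1 lower. Over all genera tested, 16.7% were called higher and 64.3% lower in the colon, and 33.3% and 58% in the cecum. Erwinia, a plant-associated relative of Pantoea, was in 8 of 29 colon libraries with antibiotics, up to 0.410%, and in no library of the other site and diet groups. Serratia, a gut and environmental genus, averaged 0.0823% in colon on chow and 0.109% with antibiotics and did not pass (log2 difference 0.34 ± 0.65, edgeR adjusted p = 0.662), while in the cecum it rose by 6.57 ± 0.85. Proteus was lower in cecum with antibiotics by a log2 difference of -5.11 ± 0.88 (edgeR adjusted p = 3.24e-06), being in 9 of 31 chow libraries. Haemophilus, Actinobacillus and Aggregatibacter, mouth genera that the table places in the same order and that are among the genera used to build the sets, fell in the colon and rose in the cecum. For Haemophilus the log2 differences were -8.89 ± 0.64 and 8.04 ± 0.81. Among 129 further names of the Proteobacteria, 42 were tested in the colon, with 13 higher and 13 lower. In the cecum 38 were tested, with 21 higher and 12 lower, beside the same shares over all genera.

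Across the means of the 20 groups, the genus most like Klebsiella, with the 5 members left out of the candidates, was Enterococcus, a Gram-positive facultative anaerobe (Spearman's rho = 0.86), then Bacillus (0.774) and Parabacteroides (0.749), among 116 genera with at least 0.1% in a group. Among the same candidates Enterococcus was also the most alike to Pantoea (0.848) and Enterobacter (0.861). For Escherichia it was Weissella (0.706), a genus of fermented food, and for Escherichia-Shigella it was Subdoligranulum (0.717). These rank correlations are over group means that share diet and site, and describe the order of the groups only.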

How the data were processed

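16S rRNA gene libraries were made with the PacBio SMRTbell kit from DNA extracted with the TIANamp Stool DNA Kit, per the labels' protocols. The values are raw counts of sequence variants per library with a taxonomy for each variant, as deposited by the authors; of the denoising tool, the taxonomy database and the filters the labels say nothing. Libraries were grouped by site, diet and light cycle from their labels. The smallest count above 0 is 2, and no pair of libraries holds identical values. Counts were summed by genus name. A share is the count over the library total (39157 to 73076, median 63694.5), and intervals and floors cover counting error only.

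Differences were tested with edgeR 4.0.16 (R 4.3.3), quasi-likelihood with robust dispersion, the total count as library size, at least 3 counts in at least 5 samples, on all genera or all variants at once, with Benjamini-Hochberg adjustment at 0.05. Diet and site were tested over all light cycles, and light cycle within each site and diet. Nothing says that samples of a group came from separate mice beyond the single cages, so p-values measure the spread between these samples. On simulated counts the test recovered the fold sizes but made more false calls than its threshold states, more so among variants, so calls near the threshold are weaker than their adjusted p states. Alternatives were TMMwsp factors, DESeq2 1.42.0, limma 3.58.1 on centred log-ratios (pseudocount 0.5), other filters, another library size, blocks and leaving out libraries. Group means, leaving out replicate numbers and the permutation tests were added after the data were seen.

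Library sets were built by clustering libraries on 166 low-level variants of 26 mouth and fermentation genera, each below 2% and in at least 5 libraries; 3 ways of linking gave the same 11 sets. A check of correlated deviations did not settle whether same-numbered colon and cecum samples pair. With antibiotics 2 of 29 such pairs correlated over 0.1 (mean r = -0.081). On chow 12 of 30 did (mean r = 0.045, highest 0.585). Between light cycles on chow, 12 of 60 same-numbered pairs did so at each site. The text names all 5 genera with or without a call, of each genus the 6 variants with the highest mean share and any that reach 1%, the other tested Enterobacterales as counts with values where a group mean reaches 0.01%, Parabacteroides, Bacteroides and Enterococcus for comparison, and the genera most alike by rank correlation. The members and lists were chosen with earlier results of these data known. Sequences of the variants were not used here. Figures were drawn with matplotlib 3.10.9 in Python 3.11.15.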

Additional observations from a re-analysis of the deposited data

Results flagged for a closer look

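In a group of 4 to 10 libraries, a library was singled out when its gap to the nearest other, relative to the range of its group, passed Dixon's 95% limit. Of 84 cases of a genus in a group, 22 held such a library, 20 of them at the high end and 2 at the low end. A group in which only 1 library holds the genus is always singled out. The limit is set for normally distributed values, which these shares with many at 0 are not, so no chance rate is given. Klebsiella was low in LD0/24 replicate 1 of cecum on chow, at 0.0133% against 0.0381% to 0.0491%, and high in LD8/16 replicate 4 of cecum with antibiotics, at 29.6% against 10.7% to 14.7%. The same cecal library held 6.18% Pantoea against 2.37% to 3.04%. In cecum on chow Pantoea was present in 1 library and at 0 in the others of its group in LD8/16 (0.0117%), LD12/12 (0.0122%) and LD16/8 (0.0179%). Enterobacter was high in LD0/24 replicate 5 of colon on chow, at 0.266%, and present in 1 library of LD24/0 of cecum on chow, at 0.0176%.

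Escherichia was at 0% in LD8/16 replicate 4 of colon on chow, where the other 5 libraries hold it. It was present at 0.00717% in 1 library of LD24/0 of colon on chow, and it was high, at 0.303%, in LD24/0 replicate 3 of colon with antibiotics. Escherichia-Shigella gave 11 of these 22 cases, all at the high end. In colon on chow they held 0.258% (LD0/24) and 0.183% (LD16/8). In colon with antibiotics they held 0.198% (LD8/16), 0.600% (LD12/12) and 0.773% (LD24/0). In cecum on chow they held 0.260% (LD0/24), 10.4% (LD8/16), 0.106% (LD16/8) and 1.23% (LD24/0), and in cecum with antibiotics 0.262% in LD8/16 and in LD12/12.

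The change with antibiotics differed between cecum and colon, by the interaction test of edgeR, for Klebsiella (4.12 on the log2 scale), Pantoea (4.91) and Enterobacter (5.01). In the chow shares behind it, library set and site cannot be told apart. The effect of light cycle differed between the sites for Escherichia (edgeR adjusted p = 0.00193), which was found in 3 of 30 cecal libraries with antibiotics, and this call was lost with library set as a block (adjusted p = 1.00).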

How the results depend on the processing

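Klebsiella, Pantoea and Enterobacter kept their direction and call for diet at both sites, for site on chow and for the interaction of diet and site under all alternatives that gave a value. Over the settings that keep all libraries, 360 results for single genera stayed on their side of the threshold. A further 29 lost it, 16 gained it and 8 changed sign. Of the counts of calls, over genera or variants, 103 stayed within 1.5 times and 23 did not. These 8 values, and 2 with a library left out, changed sign: Escherichia for diet in the colon with library set as a block (-2.80), Escherichia-Shigella for diet in the cecum without LD12/12 replicate 5 with antibiotics (-0.16, in a range up to 0.84 over libraries left out in turn), Enterobacter and Escherichia-Shigella for site with antibiotics with the library size without Parabacteroides, Bacteroides and Enterococcus (0.018 and 0.32), Escherichia-Shigella for site on chow with the replicate block (-0.95) and without cecal LD8/16 replicate 2 (-0.11), and Escherichia for diet by site with TMMwsp factors (-1.41), DESeq2 (-0.90), limma (-3.35) and group means (-1.99). The cause was not tested.

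The number of the 5 genera called changed as follows. The number of all genera called can also move with the setting and is not given here. These counts therefore do not single out the members. For any light cycle in colon with antibiotics, 3 were called, and 1 with TMMwsp factors or the replicate block; of variants 9, and 4 with the replicate block. For diet in the colon, 5, and 3 with the set block. For site by light, 1, and 4 with limma and 0 with the set block over the light cycles it can compare. For any light cycle in cecum with antibiotics, 0, and 1 with TMMwsp factors, DESeq2 or limma and 2 with no filter. For any light cycle in colon on chow, 1, and 2 with limma and 0 with the set block. In cecum on chow, 1, and 2 with no filter and 0 with TMMwsp factors, limma, the replicate block or the strict filter. Against LD12/12, calls were counted over the 4 contrasts of each genus: 3 in colon with antibiotics, all of Escherichia, and 6 with limma and 0 with the set block over the contrasts it can estimate. In cecum with antibiotics there were 0, and 1 with TMMwsp factors, DESeq2 or limma and 2 with no filter.

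Leaving out single libraries gave 4 to 5 calls for diet in the colon, 3 to 3 in the cecum, 4 to 4 for site on either diet and 3 to 3 for diet by site. It gave 2 to 4 for any light cycle in colon with antibiotics, 1 to 2 in colon on chow, 0 to 1 in the cecum on either diet and 1 to 2 for site by light. Against LD12/12 it gave 3 to 4 calls over genera and contrasts in the colon on either diet, 0 to 2 in cecum with antibiotics and 0 to 0 on chow. The calls over all genera are not given for these refits either. Escherichia-Shigella gained a light call in colon with antibiotics without LD0/24 replicate 2 (adjusted p = 0.0469) or LD8/16 replicate 4 (0.00460), and in colon on chow without LD16/8 replicate 3 (0.0245). The set block was not run for cecum on chow, diet in the cecum, site or diet by site, where sets and groups coincide, and for diet by site replicate numbers were left out in place of single libraries. Members near the floor, chiefly Escherichia and the minor variants, are limited by depth.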
